A study of Mus musculus with 6 samples.

Results

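The 10 genes described here encode small leucine-rich proteoglycans, and they were taken by gene name from the deposited table of 55416 genes as Dcn, Bgn, Aspn, Fmod, Lum, Prelp, Omd, Ogn, Epyc and Chad. All 10 were found, and all 10 had enough counts to be tested. The cells were primary mouse chondrocytes, the cells of cartilage, which the labels take from neonatal knee joints, whereas the supplementary methods describe chondrocytes from adult mice. They grew in DMEM/F12 medium with serum. The 3 siNC libraries, labelled WT, came from cells given scrambled siRNA, and the 3 siPkm2 libraries from cells given siRNA to Pkm2, at 50 nM by the methods, with knockdown checked at 48 h. The time of RNA extraction is not given in the sources used here. The genotype labels name siPkm2 replicate 1 as a PKM2 knockdown and give other PKM numbers for replicates 2 and 3, while the titles of all 3 read siPKM2, and the titles were followed. The labels do not say whether the replicates were separate animals or separate cultures of the same cells, so p-values measure the spread between these libraries, which may be technical.

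Small leucine-rich proteoglycans are secreted proteins whose core is a curved stack of leucine-rich repeats. Several carry glycosaminoglycan chains, chondroitin or dermatan sulfate in decorin and biglycan and keratan sulfate in fibromodulin and lumican. In cartilage and tendon they coat collagen fibrils, regulate fibril diameter and spacing, and bind growth factors such as TGF-β. They are grouped in classes by sequence, and most of them lie beside one another in the genome. Decorin (Dcn), biglycan (Bgn) and asporin (Aspn) form class I. Fibromodulin (Fmod), lumican (Lum), PRELP (Prelp) and osteomodulin (Omd) form class II, osteoglycin (Ogn) and epiphycan (Epyc) form class III, and chondroadherin (Chad) belongs to a further class without glycosaminoglycan chains. In the deposited annotation, all 10 genes carried a leucine-rich repeat domain, and 8 of 10 were assigned to the collagen-containing extracellular matrix.

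Of the 10 genes, 8 had an entry in the RefSeq promoter table (build GRCm38.p6, 250 bases before to 50 after the start of the gene), and Dcn and Lum had none. The windows of Epyc, Aspn, Ogn and Bgn are shown because the first 3 were called at a fold over 2 in the test with pairing, and the siNC and siPkm2 libraries of Bgn did not overlap. They are written 5′ to 3′ along the gene, with capitals at matches on either strand to 4 short motifs that were searched. The first was TATAAA, the TATA box, and the second AACAAT, bound by SOX factors. The others were TGANTCA, bound by AP-1, and ACATTCC, bound by TEAD factors.
Epyc (chr10:97643818-97644117, plus strand): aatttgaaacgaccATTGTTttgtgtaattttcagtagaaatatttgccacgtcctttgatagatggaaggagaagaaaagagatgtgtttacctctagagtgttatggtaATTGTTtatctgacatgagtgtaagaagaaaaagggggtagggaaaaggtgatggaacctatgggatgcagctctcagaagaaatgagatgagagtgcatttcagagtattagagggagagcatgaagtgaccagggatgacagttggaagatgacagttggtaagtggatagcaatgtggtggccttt
Aspn (chr13:49544193-49544492, plus strand): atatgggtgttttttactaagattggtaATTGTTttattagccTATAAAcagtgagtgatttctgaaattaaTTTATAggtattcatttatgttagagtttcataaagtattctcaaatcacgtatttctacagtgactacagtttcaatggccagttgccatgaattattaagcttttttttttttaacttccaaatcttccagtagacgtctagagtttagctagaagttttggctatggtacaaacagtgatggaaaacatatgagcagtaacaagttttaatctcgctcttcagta
Ogn (chr13:49607765-49608064, plus strand): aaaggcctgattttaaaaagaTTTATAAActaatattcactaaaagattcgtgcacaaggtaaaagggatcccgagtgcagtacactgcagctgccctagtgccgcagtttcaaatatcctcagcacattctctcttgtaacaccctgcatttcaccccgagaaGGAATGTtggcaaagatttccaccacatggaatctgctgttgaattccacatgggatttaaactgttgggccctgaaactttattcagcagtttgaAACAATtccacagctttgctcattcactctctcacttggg
Bgn (chrX:73483351-73483650, plus strand): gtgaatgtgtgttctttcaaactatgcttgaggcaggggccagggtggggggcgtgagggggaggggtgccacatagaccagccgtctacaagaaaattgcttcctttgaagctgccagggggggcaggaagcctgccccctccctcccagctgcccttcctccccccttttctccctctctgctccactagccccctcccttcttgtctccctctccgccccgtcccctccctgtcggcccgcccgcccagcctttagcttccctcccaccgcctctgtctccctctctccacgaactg
The Epyc window held 2 AACAAT matches and the Aspn window held 1, beside 2 TATAAA matches. The Ogn window held 1 AACAAT match, 1 ACATTCC match and 2 TATAAA matches that overlap each other on opposite strands. The Bgn window, like that of Fmod, which is not shown, held none of the 4 motifs. It was 63.7% G and C, against 31.0% for Aspn and 40.3% for Epyc. AACAAT was found in 4 of the 8 matched genes and in 10.7% of all 32851 promoter windows, TATAAA in 3 of 8 and 13.6%, ACATTCC in 1 of 8 and 3.85%, and TGANTCA in 0 of 8 and 7.81%. Epyc has a second entry that starts 3035 bases further along, which was searched with it. These matches describe the letters of the windows only.

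Total estimated counts lay between 22317065 and 25691096 per library. Libraries with the same replicate number resembled each other, with correlations between 0.65 and 0.76 of their deviations from the group means across genes, and siNC and siPkm2 libraries of different numbers lay at 0.16 or below. Replicate 2 of both groups stood apart. The summed TPM (a level scaled for gene length and library size) of 10 chondrocyte markers was 3988 and 5352 in siNC and siPkm2 replicate 2 and lay between 15161 and 18274 in the other 4 libraries. The summed TPM of 10 inflammatory genes was 35966 and 33989 in replicate 2 and between 302 and 438 elsewhere. No marker of the chondrocyte list was at 0 in every library. Macrophage markers summed to 118 and 87.6 TPM in replicate 2 against 10.6 to 26.4 TPM elsewhere, with Ptprc and Adgre1 under 1 TPM in every library, and all 5 endothelial markers stayed under 1 TPM. In siNC and siPkm2 replicate 2, Cd68 was at 92.8 and 53.4 TPM and Cd14 at 18.9 and 29 TPM. Lyz2 was at 5.09 and 4.52 TPM there and between 2.74 and 5.44 TPM elsewhere. Csf1r lay between 0.32 and 1.27 TPM over all libraries. In bulk samples, fewer cells of a type and less RNA per cell cannot be told apart. Pkm, the targeted gene, read 2335, 2746 and 1674 CPM in siNC (counts scaled to library size with edgeR's TMM factors, replicates 1 to 3 in order throughout). In siPkm2 it read 336, 541 and 309 CPM, and the groups did not overlap.

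By mean level, Bgn and Dcn of class I led the family in both groups, although Fmod exceeded Dcn in siNC replicates 1 and 3. In siNC, Bgn was at 1378 ± 271 TPM (SD, n = 3), Dcn at 1300 ± 1241, Fmod at 547 ± 286, Ogn at 404 ± 182 and Lum at 294 ± 173. Prelp followed at 187 ± 183 TPM, Epyc at 118 ± 5.28, Omd at 52.3 ± 40.1, Aspn at 47.9 ± 43.2 and Chad at 3.07 ± 1.59 (SD, n = 3 for each). In this order only Epyc against Omd and Aspn against Chad were separated without overlap of their libraries, and all other neighbours overlapped. In siPkm2 the order was Dcn (2621 ± 1814 TPM), Bgn (770 ± 229), Epyc (284 ± 34.2), Fmod (272 ± 117), Lum (240 ± 130), Prelp (159 ± 123), Ogn (131 ± 35.9), Omd (36.3 ± 15.5), Aspn (5.74 ± 4.8) and Chad (3.92 ± 2.45; SD, n = 3 for each). There, Dcn and Bgn, Bgn and Epyc, Ogn and Omd, and Omd and Aspn did not overlap. Epyc moved from rank 7 to rank 3 and Ogn from rank 4 to rank 7 of the group means. By library, Epyc ranked 6, 7 and 6 in siNC replicates 1, 2 and 3 and 3, 5 and 4 in siPkm2. Ogn ranked 4, 6 and 4 in siNC and 6, 7 and 6 in siPkm2, so its ranks overlapped.

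**Figure D1:**
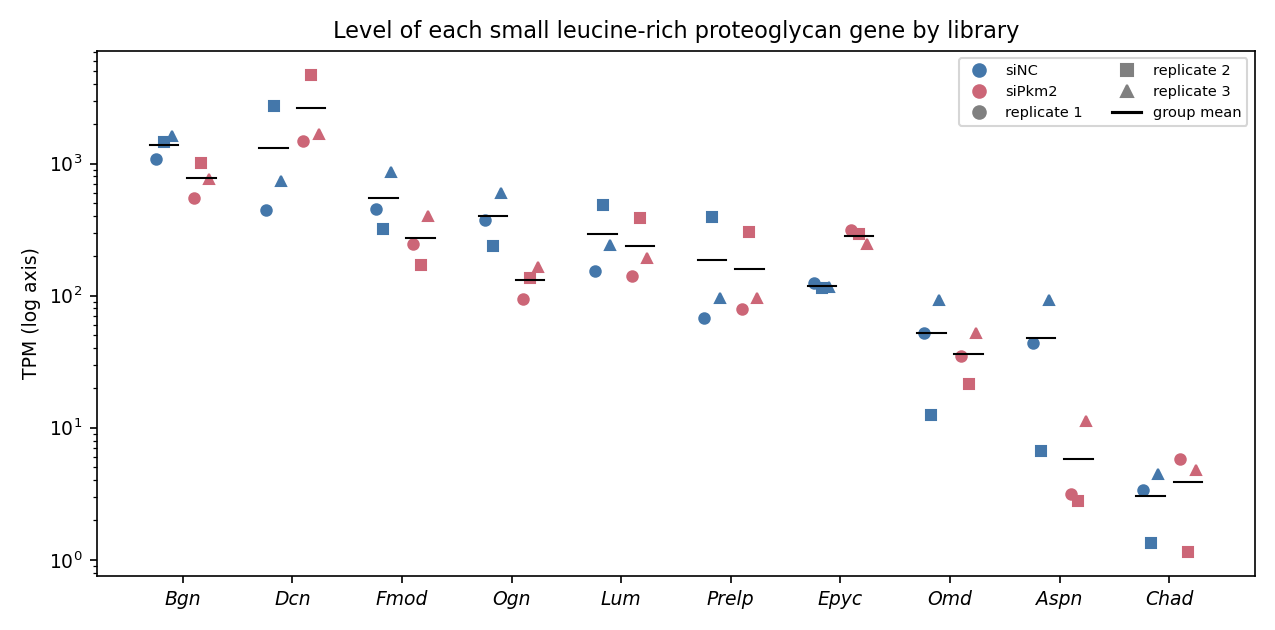
TPM of the 10 genes on a log axis, with siNC libraries in blue, siPkm2 libraries in red, a symbol for each replicate number and a black line at the mean of each group. The 3 siNC libraries of Epyc lie between 114 and 124 TPM and the siPkm2 libraries between 247 and 314, whereas Dcn, Prelp and Lum are highest in replicate 2 of both groups.

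The total output of the family did not separate the groups. The 10 genes summed to 2796, 5744 and 4456 TPM in siNC replicates 1, 2 and 3 and to 2947, 7027 and 3595 TPM in siPkm2, so the ranges overlapped. The composition differed more than the total. Dcn made up 15.9%, 47.4% and 16.5% of the summed TPM in siNC and 50.4%, 67.1% and 46.3% in siPkm2, while Bgn made up 38.6%, 25.2% and 36.1% in siNC and 18.5%, 14.3% and 21.2% in siPkm2. Thus the Bgn shares of the groups did not overlap, and the Dcn share of siNC replicate 2 lay within the siPkm2 range. Bgn was the leading gene of siNC replicates 1 and 3, at 2.44 and 2.19 times the TPM of Dcn. Dcn led in siNC replicate 2 at 1.89 times Bgn and in siPkm2 replicates 1, 2 and 3 at 2.72, 4.70 and 2.19 times Bgn.

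**Figure D2:**
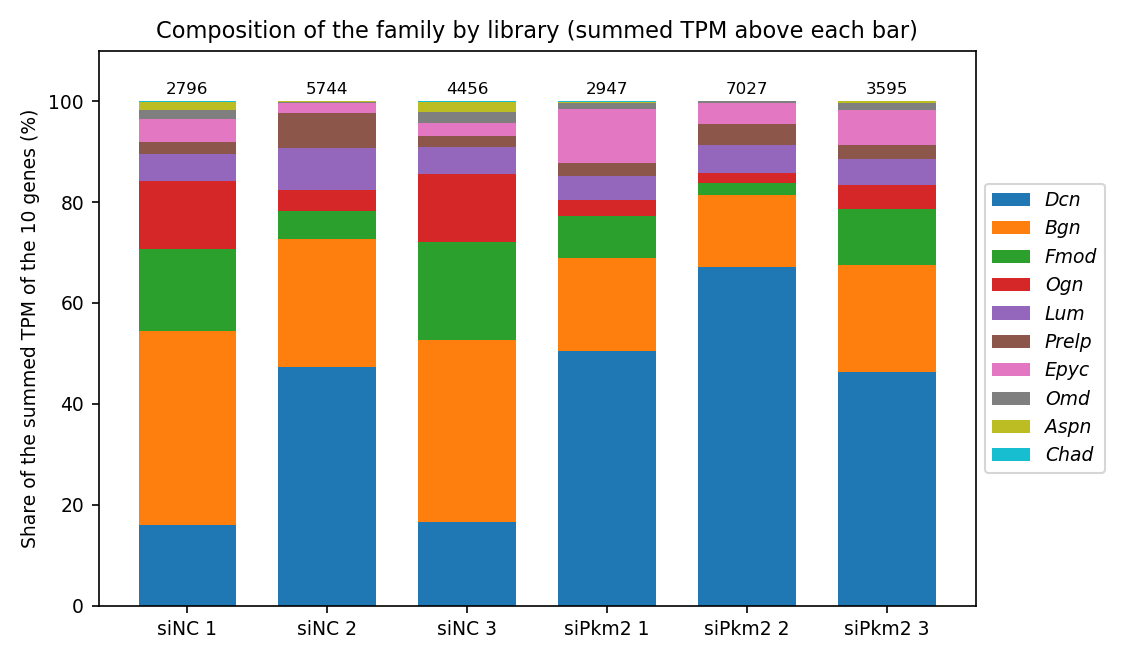
Stacked bars of the share of each gene in the summed TPM of the 10 genes, one bar per library, with the summed TPM in numbers above. Dcn takes 46.3% to 67.1% of the 3 siPkm2 bars and 15.9% and 16.5% of siNC replicates 1 and 3, and 47.4% of siNC replicate 2, which is within the siPkm2 range.

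Without a term for the replicate number, 0 of the 10 genes had an adjusted p under 0.05, as was the case for 0% of all 15269 genes tested (edgeR, quasi-likelihood F test, Benjamini-Hochberg), and 0% were called at a fold over 2 as well. Pkm, the targeted gene, did not pass in this fit either, at a log2 fold change of -2.51 (SE 0.33, adjusted p = 0.0738, same test). At an unadjusted p under 0.05 there were 4 of 10 genes against 17.6% of all genes. DESeq2 without the block called 3 of 10 genes at a fold over 2, where it called 2.79% of all genes. With the replicate number as a block, which compares libraries of the same number, 6 of 10 genes had an adjusted p under 0.05. Of these, 2 were higher in siPkm2, Dcn and Epyc, where 12.3% of all genes were, and 4 were lower, Bgn, Aspn, Fmod and Ogn, where 10.8% of all genes were. At a fold over 2 and an adjusted p under 0.05, 2 genes were called higher (background 2.65%) and 2 lower (background 3.18%), and these were Dcn, Epyc, Aspn and Ogn. The median log2 fold change of the 10 genes was -0.35 without and -0.20 with the block, beside -0.02 and -0.01 over all genes tested. Standard errors of the 10 log2 fold changes lay between 0.17 and 1.02 without the block and between 0.09 and 0.49 with it. With replicate 1 or replicate 3 left out of both groups, 0 of 10 genes and 0% of all genes passed with the block at any fold (adjusted p of the 6 genes between 0.0642 and 0.128 by edgeR). Without replicate 2 of both groups 7 of 10 passed, where 39.1% of all genes did. Each of these 3 fits rests on 2 pairs.

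**Figure D3:**
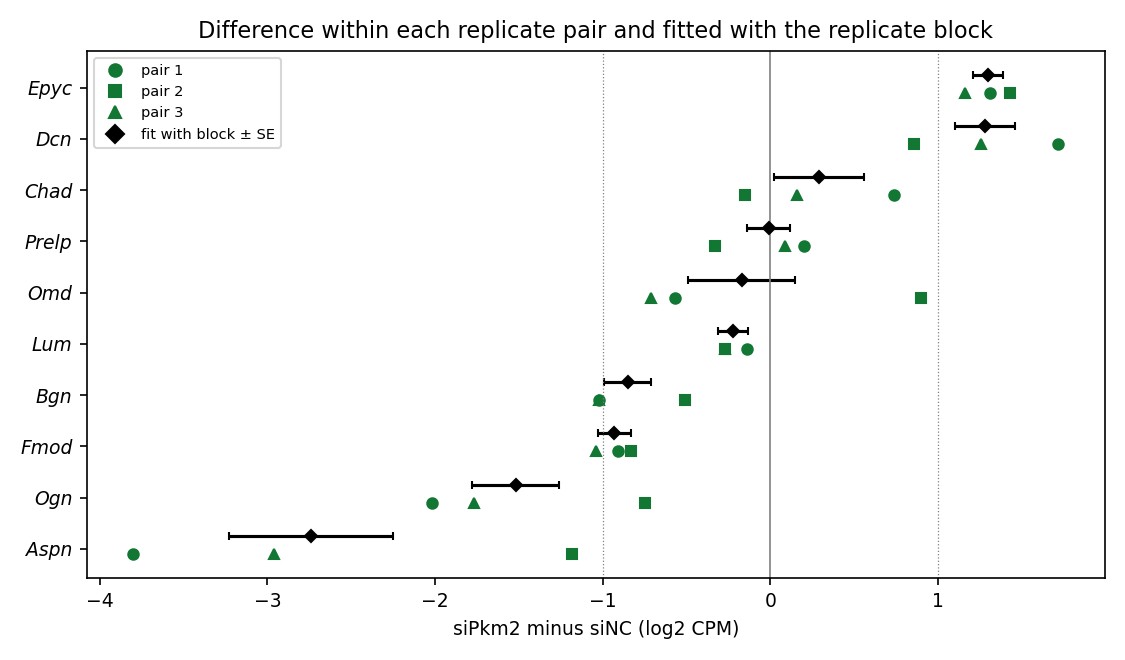
Difference in log2 CPM between siPkm2 and siNC for each gene, with green symbols for the 3 replicate pairs, black diamonds for the fit with the replicate block and bars for its standard error. Dotted lines mark a fold of 2. Epyc and Dcn lie right of 0 and Bgn, Fmod, Ogn, Aspn and Lum left of 0 in all 3 pairs, whereas Omd, Prelp and Chad have pairs on both sides.

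Counted by pair, 2 of 10 genes were higher in siPkm2 in all 3 pairs, against 30.5% of all genes, and 5 of 10 were lower in all 3, against 30.6%. The groups did not overlap for 3 of 10 genes. For 1 of these, Epyc, siPkm2 was higher (12.0% of all genes), and for the other 2, Bgn and Ogn, it was lower (12.3% of all genes).

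Among the class I genes, Dcn and Bgn, which are close relatives that bind collagen and TGF-β, changed in opposite directions. Decorin limits the lateral growth of collagen fibrils. Dcn (ENSMUSG00000019929, chromosome 10 from 97479609 to 97518143 on GRCm38) measured 471, 2537 and 703 CPM in the siNC libraries against 1548, 4596 and 1682 CPM in the siPkm2 libraries. Replicate 2 was the highest library of both groups, and siNC replicate 2 lay above siPkm2 replicates 1 and 3, so the groups overlapped. Within pairs Dcn was 3.28, 1.81 and 2.39 times higher in siPkm2. The fitted log2 fold change was 1.08 (SE 0.75, adjusted p = 0.508 by edgeR) without the block and 1.28 (SE 0.18, adjusted p = 0.0148, same test) with it. Without the block it depended on replicate 2, at 2.15 without siNC replicate 2 and 0.39 without siPkm2 replicate 2.

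Biglycan, which also acts as a signal to toll-like receptors when it is released from the matrix, showed the opposite order. Bgn (ENSMUSG00000031375, chromosome X from 73483602 to 73495933) was at 1586, 1880 and 2168 CPM in siNC and at 780, 1316 and 1067 CPM in siPkm2. The groups did not overlap, all of siPkm2 being lower (exact permutation p = 0.1, two-sided, the smallest that 3 against 3 can give). The log2 fold change was -0.83 (SE 0.27, adjusted p = 0.199 by edgeR) without the block and -0.85 (SE 0.14, adjusted p = 0.0182) with it. The decrease within pairs was 2.03-fold, 1.43-fold and 2.03-fold, so it was smallest in pair 2, and the fitted change did not reach a fold of 2.

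Asporin, named for a run of aspartate residues and known as an inhibitor of TGF-β in cartilage, had the largest fitted fold change of the 10 genes. Aspn (ENSMUSG00000021388, chromosome 13 from 49544443 to 49567565) was at 63.5, 8.5 and 121 CPM in siNC and at 4.48, 3.70 and 15.5 CPM in siPkm2. The counts behind these levels were 1587, 210 and 2765 in siNC and 96, 95 and 339 in siPkm2. The siNC replicate 2 library was 14.3 times below siNC replicate 3, and it lay below siPkm2 replicate 3, so the groups overlapped. Within pairs Aspn was lower in siPkm2 by 14.2-fold, 2.30-fold and 7.81-fold. With the block its log2 fold change was -2.74 (SE 0.49, adjusted p = 0.0207 by edgeR), and without the block it was -3.03 (SE 1.02, adjusted p = 0.21). Without the block it moved with replicate 3, to -2.19 without siNC replicate 3 and to -3.98 without siPkm2 replicate 3.

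Of the class II genes, Fmod passed with the block and Lum, Prelp and Omd did not. Fibromodulin binds type I and type II collagen and takes part in fibril assembly and cross-linking. Fmod (ENSMUSG00000041559, chromosome 1 from 134037254 to 134048277) was at 907, 562 and 1579 CPM in siNC and at 484, 316 and 768 CPM in siPkm2. The decrease was nearly the same in each pair, at 1.87-fold, 1.78-fold and 2.06-fold, although siNC libraries differed by up to 2.81-fold and the groups overlapped. Its log2 fold change was -0.93 with the block (SE 0.10, adjusted p = 0.0112 by edgeR) and -0.96 without it (SE 0.48, adjusted p = 0.356).

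Lumican, a keratan sulfate proteoglycan best known for the order of collagen fibrils in the cornea, differed little between the groups. Lum (ENSMUSG00000036446, chromosome 10 from 97565128 to 97572703) was at 234, 656 and 339 CPM in siNC and at 212, 546 and 282 CPM in siPkm2. It was lower in siPkm2 in each pair, by 1.10-fold, 1.20-fold and 1.20-fold, with a log2 fold change of -0.22 with the block (SE 0.09, adjusted p = 0.112 by edgeR). Prelp, whose protein links the matrix to heparan sulfate through a basic end, was at 159, 814 and 203 CPM in siNC and at 183, 648 and 215 CPM in siPkm2. Its pairs lay on both sides of 0, and the log2 fold change with the block was -0.01 (SE 0.13, adjusted p = 0.949). For both genes the step between replicate 2 and the other libraries exceeded any step between the groups.

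Osteomodulin, an acidic keratan sulfate proteoglycan of bone, changed direction between pairs. Omd (ENSMUSG00000048368, chromosome 13 from 49582462 to 49592822) was at 49.8, 10.1 and 78.6 CPM in siNC and at 33.5, 18.8 and 47.9 CPM in siPkm2. The log2 differences of pairs 1, 2 and 3 were -0.57, 0.90 and -0.71, and the log2 fold change with the block was -0.17 (SE 0.32, adjusted p = 0.725 by edgeR). Without replicate 2 of both groups it was -0.65 (adjusted p = 0.00196), and this is the seventh gene that passed in that setting.

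The class III genes changed in opposite directions. Epiphycan is a dermatan sulfate proteoglycan of the growth plate and a marker of cartilage. Epyc (ENSMUSG00000019936, chromosome 10 from 97644068 to 97682454) was at 129, 103 and 109 CPM in siNC and at 320, 277 and 243 CPM in siPkm2. It varied least of the 10 genes within a group, with the highest library 1.25 times the lowest in siNC and 1.32 times in siPkm2, and the groups did not overlap (exact permutation p = 0.1, two-sided, again the smallest possible). The increase was 2.49-fold, 2.69-fold and 2.24-fold in pairs 1, 2 and 3. Its log2 fold change was 1.30 without the block (SE 0.17, adjusted p = 0.0738 by edgeR) and 1.30 with it (SE 0.09, adjusted p = 0.00942), the lowest adjusted p of the 10 genes in both fits. Unlike Acan, Col2a1 and the summed chondrocyte markers, Epyc was not low in replicate 2, which differed from the mean of replicates 1 and 3 by -0.20 in siNC and -0.01 in siPkm2 on the log2 scale.

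Osteoglycin, also called mimecan, is a keratan sulfate proteoglycan of connective tissue and bone. Ogn (ENSMUSG00000021390, chromosome 13 from 49608046 to 49624501) was at 614, 344 and 885 CPM in siNC and at 151, 204 and 259 CPM in siPkm2. All siPkm2 libraries were below all siNC libraries (exact permutation p = 0.1, two-sided, again the smallest possible). The decrease was 4.06-fold in pair 1, 1.68-fold in pair 2 and 3.42-fold in pair 3. The log2 fold change was -1.59 without the block (SE 0.39, adjusted p = 0.142 by edgeR) and -1.52 with it (SE 0.26, adjusted p = 0.0189). As for Aspn and Bgn, the difference was smallest in pair 2.

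Chondroadherin, a cartilage protein that binds type II collagen and the α2β1 integrin, was rare in these cells. Chad (ENSMUSG00000039084, chromosome 11 from 94565047 to 94569127) had 85, 29 and 92 counts in siNC and 123, 27 and 99 counts in siPkm2, or between 1.05 and 5.73 CPM. Its log2 fold change was 0.29 with the block (SE 0.27, adjusted p = 0.451 by edgeR), with pairs on both sides of 0. The siPkm2 libraries differed among themselves by 5.46-fold, which is more than any difference within a pair.

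The replicate number moved several of these genes further than the siRNA did. In both groups, Dcn, Lum and Prelp were over 1 log2 unit higher in replicate 2 than in the mean of replicates 1 and 3, which held for 3 of 10 genes and 6.58% of all genes tested. Aspn, Omd and Chad were over 1 log2 unit lower in replicate 2 in both groups, 3 of 10 against 3.32%. Prelp stood 2.18 log2 units higher in siNC and 1.71 in siPkm2, and Aspn lower by -3.35 in siNC and -1.16 in siPkm2. The median absolute distance of replicate 2 over all genes was 0.40 in siNC and 0.35 in siPkm2. These genes therefore moved with the libraries in which chondrocyte markers were low and inflammatory genes high, and the part of that state in their levels was not tested. The 6 genes that passed with the block had the same sign in all 3 pairs. Leaving replicate 2 out of both groups could therefore not turn their direction. With replicate 1 or replicate 3 left out of both groups, their adjusted p lay between 0.0642 and 0.128 by edgeR with the block.

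**Figure D4:**
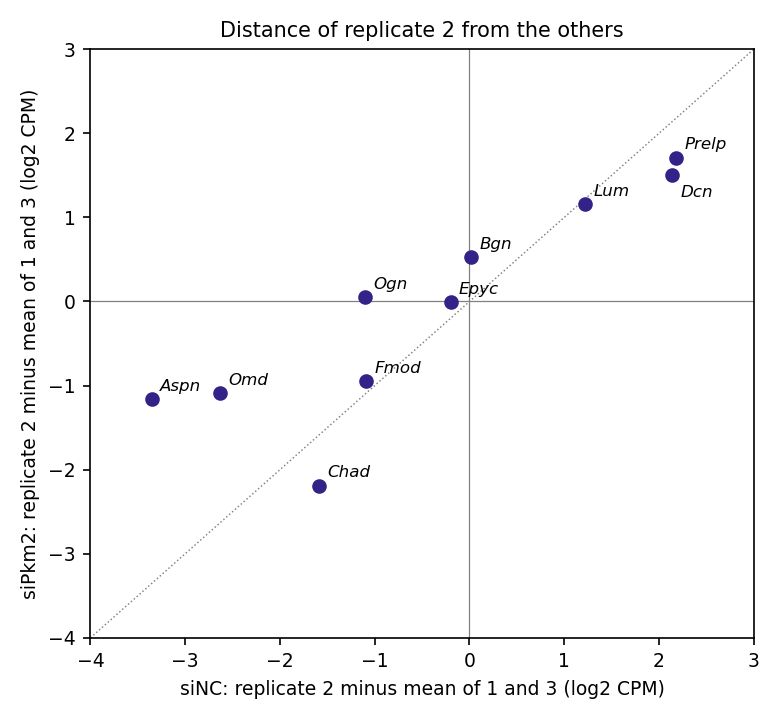
Distance of replicate 2 from the mean of replicates 1 and 3 in log2 CPM, siNC on the horizontal and siPkm2 on the vertical axis, one point per gene and a dotted line where both are equal. Prelp, Dcn and Lum lie at the upper right, Aspn, Omd and Chad at the lower left, and Epyc lies near the centre at -0.20 and -0.01.

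Most of the family lies in 3 clusters, and in each some genes passed with the block and others did not. On chromosome 10, Dcn, Lum, Kera (keratocan) and Epyc lie in this order on the plus strand within 203 kb with no other protein-coding gene between them. Dcn and Epyc, at the ends, rose with the block, Lum between them did not pass, and Kera stayed under 1 TPM in every library and was not tested. On chromosome 13, Ecm2, Aspn, Omd and Ogn lie within 120 kb, also on the plus strand. Aspn and Ogn fell with the block. Omd lay between them at -0.17 without passing, and Ecm2 was at -0.95 (SE 0.30, adjusted p = 0.0725 by edgeR with the block). All fitted changes in this cluster were thus negative, although Omd changed direction between pairs. On chromosome 1, Prelp and Optc are neighbours 2.3 kb apart on the minus strand, and Fmod lies 115.8 kb from Prelp on the plus strand. Fmod and Optc (opticin) fell with the block, and Prelp, between them, did not pass. Optc had only 7 to 38 counts per library.

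**Figure D5:**
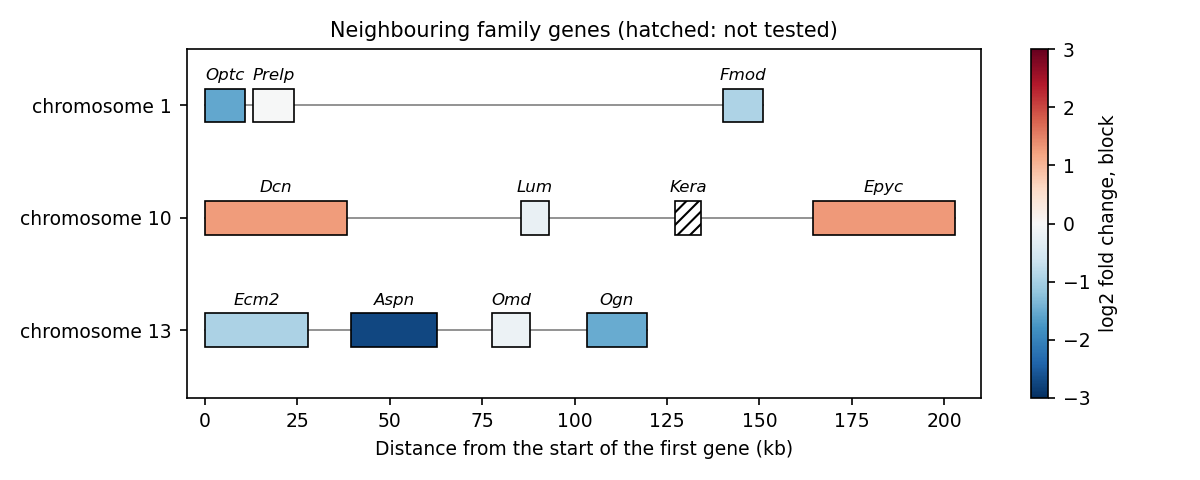
Gene spans in the 3 clusters drawn to scale as distance in kb from the start of the first gene, coloured by the log2 fold change with the replicate block (red higher, blue lower in siPkm2) and hatched where not tested. Dcn and Epyc are red at 1.28 and 1.30, Aspn and Ogn are blue at -2.74 and -1.52, and Lum, Prelp and Omd are pale.

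Some members overlap genes on the other strand, and no source used here says whether counting used strand, so their reads cannot be told apart. Cenpp, which spans the chromosome 13 cluster on the minus strand, had between 28 and 123 counts per library, where Ogn had between 3242 and 20219 and Aspn between 95 and 2765. Cenpp was at a log2 fold change of -1.12 (SE 0.32, adjusted p = 0.0565 by edgeR with the block) and did not pass. In siPkm2 replicates 1 and 2, where Aspn had 96 and 95 counts, Cenpp had 34 and 30. Gm10754, on the other strand of Epyc, had between 5 and 18 counts. Acsf2, on the other strand of Chad, had between 573 and 1061 counts, more than Chad itself, so Chad is uncertain on this ground as well. The estimated counts of Epyc and Omd had a fractional part in all 6 libraries, which counting can give where reads fit more than 1 gene, and these values are uncertain on that ground.

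The 8 other family genes listed were less abundant, with 59.5 to 140 TPM in sum. Of the 6 tested, 3 passed with the block at an adjusted p under 0.05, 1 higher and 2 lower. Over all genes tested, 12.3% were higher and 10.8% lower by this measure, and these shares apply to the lists that follow. Tsku (tsukushi, a secreted regulator of BMP and Wnt signals) rose with a log2 fold change of 1.19 (SE 0.20, adjusted p = 0.0188 by edgeR with the block). Podnl1 was at -1.11 (adjusted p = 0.0368) and Optc at -1.55 (adjusted p = 0.049) on the log2 scale in the same edgeR fit. Optc was near the floor, with 14, 38 and 31 counts in siNC and 7, 11 and 8 in siPkm2. Tsku shared the Dcn pattern of a high replicate 2, with 16.2, 70.7 and 16.0 TPM in siNC and 46.0, 109 and 41.1 TPM in siPkm2.

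The enzymes that build the glycosaminoglycan chains moved in both directions. Of 6 genes for the linker that joins chains to the core protein, 2 rose and 1 fell with the block. Among all genes, 12.3% rose and 10.8% fell. B4galt7, which adds the first galactose of the linker, rose by a log2 fold change of 0.71 (adjusted p = 0.0226 by edgeR with the block), Xylt1, which starts the chain on the core protein, by 0.67 (adjusted p = 0.0181), and Fam20b, a kinase that phosphorylates the linker xylose, fell by 0.75 (adjusted p = 0.0141). Of 4 genes for dermatan sulfate, the chain type of decorin, biglycan and epiphycan in many tissues, 1 fell and 3 did not pass. This was Chst14, the dermatan 4-O-sulfotransferase, at 27.6, 35.4 and 36.9 TPM in siNC and 11.4, 18.1 and 15.5 TPM in siPkm2. Its log2 fold change was -1.12 (SE 0.11, adjusted p = 0.011, same test). Dse, an epimerase that makes dermatan from chondroitin, was at -0.17 (adjusted p = 0.214).

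Of 5 tested genes for keratan sulfate, 2 rose with the block, B4galt1 at a log2 fold change of 0.84 (adjusted p = 0.011 by edgeR with the block) and St3gal3 at 0.50 (adjusted p = 0.0441), and Chst1, a keratan sulfate sulfotransferase, fell by 0.68 (adjusted p = 0.0491). The shares of all genes were 12.3% higher and 10.8% lower. B3gnt7 was too low to be tested. Of 6 genes for tyrosine sulfation, which fibromodulin and osteomodulin undergo, and for the cleavage of propeptides by the BMP1 family, 1 passed. Tpst1, a tyrosylprotein sulfotransferase, fell by 0.87 on the log2 scale (adjusted p = 0.0179).

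Of 8 proteases that can cut these proteins, 4 rose and none fell with the block, and 4 did not pass. Among all genes tested, 12.3% rose and 10.8% fell. Ctsk, the collagen-degrading cathepsin K, was at 110, 90.1 and 105 TPM in siNC and at 304, 149 and 251 TPM in siPkm2, a log2 fold change of 1.20 (SE 0.15, adjusted p = 0.013 by edgeR with the block). Mmp14 rose by 0.61 (adjusted p = 0.0142), and the aggrecanases Adamts4 and Adamts5 by 0.65 (adjusted p = 0.0142) and 0.75 (adjusted p = 0.0333). The siNC and siPkm2 libraries of Adamts4 and Adamts5 overlapped. Of the 4 that did not pass, Mmp3 and Htra1 were at 0.65 and 0.36, and Mmp13 and Mmp2 at -0.74 and -0.36. The median log2 fold change of the 8 was 0.63 with the block, beside -0.01 over all genes.

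Of 8 fibrillar collagen genes, the ligands of this family, 2 rose with the block, where 12.3% of all genes did, and 6 did not pass. Col5a2 and Col5a1, chains of the type V collagen that nucleates fibrils, rose by 0.93 (adjusted p = 0.0133) and 0.53 (adjusted p = 0.0283) on the log2 scale (edgeR's test with the block). Col2a1 was at -0.08 (adjusted p = 0.801) and Col1a1 at -0.62 (adjusted p = 0.111). Of 11 receptors and signalling ligands, 3 rose and 1 fell, where 12.3% of all genes rose and 10.8% fell. Tlr4, a receptor of soluble biglycan, rose by 1.34 (adjusted p = 0.0162), Itga2 and Itgb1, the subunits of a receptor of chondroadherin, by 1.25 (adjusted p = 0.0173) and 0.49 (adjusted p = 0.0268), and Tgfb3, a growth factor of the TGF-β family, fell by 0.64 (adjusted p = 0.0186; same test). Tlr2, another toll-like receptor of this list, did not pass, at 0.18 (adjusted p = 0.288, edgeR with the block).

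In most marker lists of other cell types some genes passed with the block and others did not. Beside the counts of these lists, 12.3% of all genes were higher and 10.8% lower with the block. With the block, 1 of 10 chondrocyte markers passed, Matn3, which was higher. Of 8 genes listed as fibroblast markers, 1 was higher (Prg4) and 1 lower (Pdgfrb). Prg4 is not specific to fibroblasts, since the paper counts it among the matrix genes of a chondrocyte subgroup. Of 4 tested tendon markers, 2 were lower and none higher, Thbs4 at -1.45 (adjusted p = 0.0144) and Mkx at -0.82 (adjusted p = 0.046) as edgeR log2 fold changes. Tnmd, at -1.12 (adjusted p = 0.0526), and Scx, at 0.22 (adjusted p = 0.5995), did not pass in the same edgeR fit, and Scx was higher in siPkm2 in pairs 1 and 3. The summed tendon markers lay between 53.8 and 68.3 TPM in siNC and between 31.6 and 38.7 TPM in siPkm2, without overlap, and the Kera gene among them was under 1 TPM in every library. Of 5 tested osteoblast markers 1 was lower, Ibsp, at -1.45 (adjusted p = 0.0278, edgeR with the block). The sum of the osteoblast list ranged from 47.9 to 337 TPM in siNC and from 46.1 to 139 TPM in siPkm2, and that of the fibroblast list from 2466 to 4876 TPM and from 1655 to 3422 TPM. Of the other lists, 1 of 4 tested macrophage markers was higher (Cd14), 2 of 9 inflammatory genes were higher (Cxcl1 and Il6), and 0 of 1 endothelial and 0 of 2 muscle markers passed. Fmod, Ogn, Aspn and Bgn were lower with the block, as were the tendon markers Thbs4 and Mkx, whereas Tnmd and Scx did not pass. The part of a change in cell make-up in these results was not tested.

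Over the 6 libraries, the genes outside the family whose log2 CPM was most like that of Dcn, the member with the highest mean TPM, were Peak1, Mx1, Gm43196, Cd47 and Tap1, with Pearson's r between 0.996 and 1.000 among 15259 genes compared. These values are a description over 6 libraries that share replicate numbers. Mx1 and Tap1 are interferon-inducible genes. Of 10 interferon-stimulated genes listed, 3 passed with the block, all higher, where 12.3% of all genes were. Among them was Mx1 at a log2 fold change of 2.55 (SE 0.38, adjusted p = 0.0161 by edgeR with the block). The other 7 did not pass, but each of the 10 was higher in siPkm2 in all 3 pairs (30.5% of all genes). The median log2 fold change of the list was 3.36 with the block and 1.46 without. The summed TPM of that list was 32.4, 2333 and 62.0 in siNC replicates 1, 2 and 3 and 1367, 4233 and 960 in siPkm2. The list and Dcn were thus both lowest in siNC replicates 1 and 3 and highest in siPkm2 replicate 2.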

How the data were processed

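RNA-seq was available from 6 libraries, 3 siNC and 3 siPkm2, with totals of 22317065 to 25691096 counts. Estimated counts, partly fractional and not normalized, were deposited for 55416 Ensembl identifiers. TPM were scaled by the authors for gene length and library, and their group means were not used. The deposited comparison of the groups (a fold change as ratio, a log2 fold change and p-values with adjusted p-values) was not used. The submitters' processing notes list mm9 and edgeR, and the aligner and counter are not given in the sources used here. Gene positions are from GENCODE M21 (GRCm38), in which all 10 identifiers were found, and the files hold no coordinates.

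Counts were rounded, filtered by filterByExpr (15269 genes), scaled by TMM and tested with the quasi-likelihood F test of edgeR 4.0.16 (R 4.3.3), with p-values adjusted by Benjamini-Hochberg across those genes. The standard error is the log2 fold change over the root of F. The design without a replicate term was the main one, and calls used the study's thresholds (fold over 2, adjusted p under 0.05). The labels give both groups the numbers 1, 2 and 3, and same-numbered libraries deviated together (correlations 0.66, 0.76 and 0.65). The numbers were therefore taken to pair the libraries, and values with the replicate number as a block are given beside the others. Other settings were RLE or upper-quartile scaling, DESeq2 1.42.0, dropping the filter or asking for 10 counts or more per library, limma 3.58.1 on log2(TPM + 1), and libraries or pairs left out. Both edgeR designs, without and with the block, were tested on simulated data. The simulated counts held a shared effect of the replicate number and no replicate that stood apart. They therefore do not show how the fits handle replicate 2. No 2 libraries of a group were duplicates, since 50.7% to 70.3% of genes differed beyond sampling noise. The members and lists were chosen with earlier results of these data known. All 10 members are named, and from the other lists at most the 4 genes with the lowest block p among those with an adjusted p under 0.05. Other genes were named for comparison or chosen after their values were seen. These were the neighbours Kera and Ecm2, the overlapping genes, Dse, B3gnt7, Col2a1, Col1a1, Acan, Scx, Tnmd, Ptprc and Adgre1. Mmp2, Mmp3, Mmp13, Htra1, Tlr2, Cd68, Lyz2 and Csf1r were chosen in the same way. Among the 10 members, depth limits precision mainly for Chad, and among the other genes named it also limits Optc.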

Additional observations from a re-analysis of the deposited data

How the results depend on the processing

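Dcn, Epyc, Bgn, Aspn, Fmod and Ogn kept their direction in all 17 alternatives run for each. In edgeR without the block, no member passed under any change of factors or filter, with limma on TPM, or with any single library left out (0 called and 0 at any fold). The genes called over the whole table were 3 with upper-quartile factors, 9 with no filter, 3 with at least 10 counts in every library and 1 with limma, and 0 to 105 with a library left out, 105 without siNC replicate 2. DESeq2 without the block called 430 genes and 3 members, with 4 members at any fold, and with the replicate block 1028 genes and 4 members, with 6 at any fold. edgeR with the replicate block called 890 genes and 4 members, with 6 at any fold. Without replicate 2 of both groups it called 1639 genes and 5 members, with 7 at any fold, and without replicate 1 or 3 of both groups 0 genes and 0 members, with 2 pairs in each of these fits. Pkm was at -2.51 in the main fit and passed at -2.50 and -2.52 with DESeq2 without and with the block, at -2.53 with the edgeR block and at -2.63 with that block without replicate 2 of both groups, and its log2 fold change ran from -2.80 to -2.34 with a library left out, passing only without siNC replicate 2.

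Members whose sign depended on the setting did not pass in the settings where it turned. With a library left out without the block, Lum ran from -0.73 to 0.28 (0.28 without siNC replicate 2, 0.01 without siPkm2 replicate 1), Prelp from -0.97 to 0.95 (0.95 without siNC replicate 2, 0.14 and 0.09 without siPkm2 replicates 1 and 3), Omd from -0.94 to 0.16 (0.16 without siNC replicate 3) and Chad from -0.05 to 0.84 (-0.050 without siPkm2 replicate 1). With the block, Prelp was at 0.14 without replicate 2 of both groups, and Omd was at 0.054 and 0.14 without replicate 1 and replicate 3 of both groups. The cause was not tested.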
